A study of Mus musculus with 5 samples.

Results

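Skeletal transcription factor genes of the Sox and Runx families, with Mef2c, Sp7, Dlx5 and Prrx1, were followed through single cells of the newborn mouse growth plate. The 10 genes, of 29818 listed, were Sox9, Sox5, Sox6, Runx1, Runx2, Runx3, Mef2c, Sp7, Dlx5 and Prrx1, and they were chosen by name for their known roles in cartilage and bone. Their transcripts were counted as UMIs (unique molecular identifiers, tags that count each captured RNA molecule only 1 time) in 5 libraries, each from 1 pup, on the BD Rhapsody platform. All pups were labelled C57BL/6J, and the cells came from digested knee-side epiphyses of the tibia and femur. Per the paper, the Col2a1-Cre line began on a B6SJLF1 background and was later crossed to C57BL/6J. WT pups 1 and 2 are labelled wild type with no further allele named. Mutant pups 3, 4 and 5 carried a conditional knock-in of the p.R594H change in Trpv4, a calcium channel gene, switched on by Col2a1-Cre. That Cre acts in cells that use the Col2a1 promoter, chiefly cartilage cells, so the other cell types of these pups need not carry the change. The sample labels give the age as day 5 after birth and the text of the series gives day 3.

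SOX9 is the factor without which cartilage does not form, and SOX5 and SOX6 act beside it on the genes of the cartilage matrix. RUNX2, with MEF2C, drives chondrocytes towards hypertrophy, the swollen state that precedes bone, and RUNX2 and then SP7 (osterix) are needed for osteoblasts. RUNX1 and RUNX3 are relatives of RUNX2 best known from blood and nerve cells that also act in skeletal cells, DLX5 is a homeodomain factor of osteoblasts and maturing chondrocytes, and PRRX1 marks limb mesenchyme.

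The label calls all cells chondrocytes, and markers of chondrocytes defined 45778 of 82516 cells (55.5%). The clusters were built without the 10 genes and named from marker genes, so each name below stands for cells that are like that type. A cluster took the best-scoring name that also passed the checks on its markers and leading genes. For 4 of the 7 resting clusters this was not the best score: clusters of 6138, 1668 and 961 cells scored higher as proliferating and 1 of 1768 cells as articular. The same held for a tendon or ligament cluster of 1946 cells (articular), a perichondrial cluster of 3862 cells, the largest of that class (tendon or ligament), and a macrophage cluster of 632 cells (osteoclast). The 6 chondrocyte classes held resting, articular, Tgfbi (marked by Tgfbi, Mgp, Gdf5 and Bmp7), proliferating and prehypertrophic cells, and 74 cells led by Mmp13 and Mmp9. Those 74 cells were matched to the hypertrophic marker list, but Col10a1, the defining collagen of hypertrophic cells, took only 152 CPM in them against 6702 CPM in prehypertrophic cells, so they are called Mmp13-led cells. Only 4 of their 6 markers were above the mean of the other classes. Their mean Sox9 was 214 CPM against 191 CPM in macrophages. They count as chondrocytes by marker list only, and whether they are chondrocytes was not tested. Per the paper, hypertrophic chondrocytes were identified by Col10a1. The prehypertrophic class includes a Col10a1-led cluster of 300 cells, between 16.2% and 20.6% of the class in each pup. That class may thus hold hypertrophic cells, and its name does not set them apart. CPM (counts per 1e6) scales the UMIs of a gene to the total UMIs of the summed cells of a class in 1 pup. The pups gave between 117746735 and 183322632 UMIs, with a median per kept cell of 9261 and 8521 in the WT pups and of 6657, 6000 and 7016 in the mutant pups. Any 2 pups shared between 3 and 7 cell barcodes. Xist UMIs were found in 89.8% and 88.4% of cells of mutant pups 3 and 4 and in at most 0.174% of cells of the other 3 pups, so sex and genotype label are partly confounded.

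Sox9 (chr11:112782224-112787760 of GRCm38, plus strand) was high in every chondrocyte class other than the Mmp13-led cells and highest in prehypertrophic cells. Its level in prehypertrophic cells was 2471 and 2335 CPM in WT pups 1 and 2 and 1952, 2702 and 3230 CPM in mutant pups 3, 4 and 5, a mean of 2538 ± 473 CPM (SD, n = 5 pups). Mutant pup 5 was the highest and mutant pup 3 the lowest, and the WT pups lay between them. In resting cells the same pups had 1547, 1561, 1278, 1549 and 1990 CPM. The prehypertrophic level was higher than the resting level in 5 of 5 pups, by 0.67 ± 0.09 on the log2 scale (mean of the pup ratios ± SD), or 1.60 times by the means. The order of the mean Sox9 levels was prehypertrophic (2538 CPM), proliferating (2090 CPM), articular (1723 CPM), resting (1585 CPM) and Tgfbi cells (1476 CPM). Each of these was above the next in 5 of 5 pups except resting over Tgfbi cells, which held in 4 of 5, while the ranges over pups overlapped at every step. The classes were drawn from the same cells, so these orders are descriptions and carry no test.

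Sox9 was lower in Mmp13-led and osteoblast lineage cells. Mmp13-led cells had 241 and 184 CPM in the WT pups and 58.6, 262 and 325 CPM in the mutant pups, 11.9 times less than prehypertrophic cells by the means. Osteoblast lineage cells, 193 cells led by Ibsp and Dmp1, had a mean of 262 ± 161 CPM of Sox9. Sox9 also differed inside the prehypertrophic class, where the 1394 cells of a cluster led by Smpd3 and Panx3 had 2595 CPM and the 300 cells of a cluster led by Col10a1 had 1298 CPM. Sox9 was also counted outside cartilage. Perichondrial cells, the sheath around the cartilage, had 676 and 559 CPM in the WT pups and 451, 511 and 957 CPM in the mutant pups. That mean of 631 CPM was 3.30 times the macrophage mean and was higher than it in 5 of 5 pups, but erythroid cells, at a mean of 927 CPM, were above perichondrial cells in 4 of 5 pups. The class was uneven in Sox9: its cluster led by Cilp2, which scored higher on the tendon or ligament markers than on the perichondrial ones, had 904 CPM, a cluster led by Podn 715 CPM, and clusters led by Ostn and Col8a1 354 and 266 CPM.

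Macrophages served as a gauge of RNA from broken cartilage cells. They had a mean of 191 CPM of Sox9, and the ratio of their Sox9 to their Col2a1 UMIs gave 0.825 times the Sox9 UMIs that a pool of all cells would bring with that much Col2a1. The same ratio was 0.995 in pericytes or smooth muscle cells and 1.02 in erythroid cells, so the 927 CPM of Sox9 in erythroid cells was at the level of the pool. It was 1.63 in mast cells, 2.51 in fibroblasts and 2.63 in skeletal muscle cells. By Col1a1 the ratio was 0.796 in macrophages, 0.615 in pericytes or smooth muscle, 1.04 in erythroid, 1.18 in mast, 0.210 in fibroblasts and 2.29 in skeletal muscle cells. The gauge takes all reference RNA of a class as stray, so the Col1a1 ratio has no such meaning where cells make Col1a1. Per the paper, most growth plate cells other than chondrocytes express it, so 0.210 in fibroblasts does not place their Sox9 below the pool. No pool ratio was computed for perichondrial cells, so how much of their Sox9 is stray RNA was not tested. With every cell thinned to 3000 UMIs, 87.3% of resting cells (95% Wilson interval 86.9% to 87.8%), 96.0% of prehypertrophic cells and 57.5% of perichondrial cells held a Sox9 UMI, against 16.1% of macrophages and 43.0% of erythroid cells. Without thinning the shares were 94.9%, 99.4%, 72.5% and 27.2%, and 51.1% for erythroid cells, with median depths of 7236, 27204.5, 6510.5 and 7589 UMIs per cell and 7226 for erythroid cells. Intervals cover counting error only, and the perichondrial share was the nearest of these 3 cartilage and perichondrial classes to the macrophage and erythroid shares at equal depth.

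**Figure D1:**
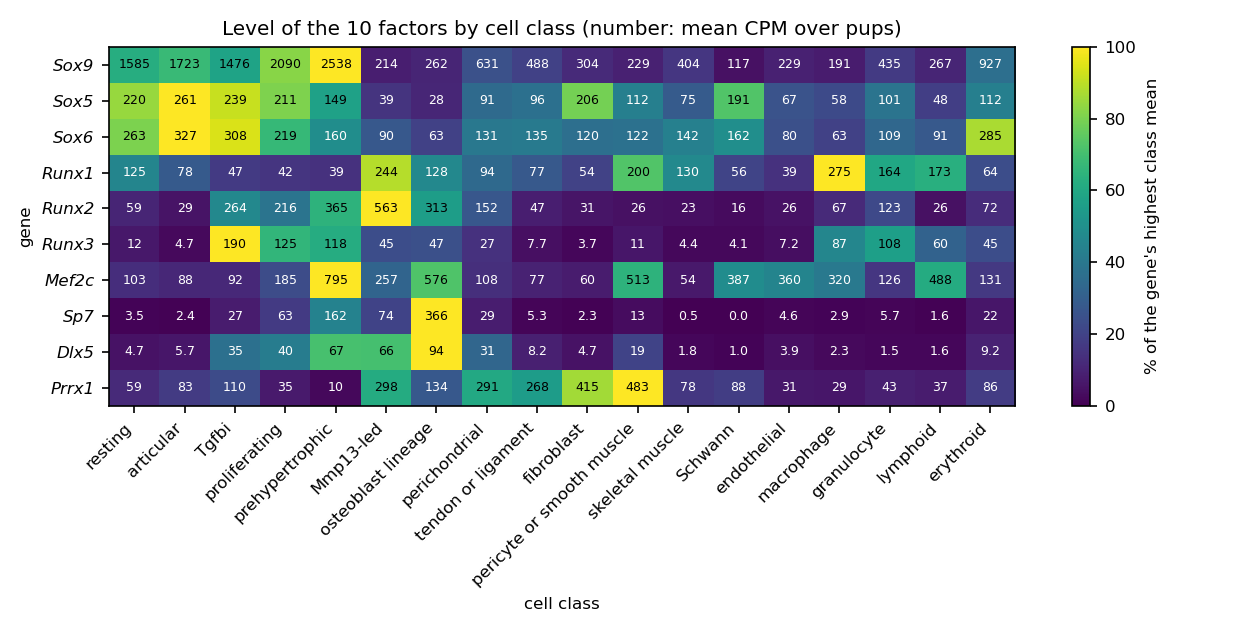
Mean level of each of the 10 factors (rows) in 18 cell classes (columns), printed as CPM averaged over pups and coloured as a percent of that gene's highest class mean. Sox9 fills the first 5 columns and is highest in prehypertrophic cells at 2538 CPM, Sp7 and Dlx5 are highest in osteoblast lineage cells, and Prrx1 is lowest in prehypertrophic cells at 10.0 CPM.

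Sox5 (chr6:143828425-144781977, minus strand) and Sox6 (chr7:115470872-116038796, minus strand) ran the other way along the growth plate. Both were highest in articular cells, the future joint surface, where Sox5 took 228 and 273 CPM in the WT pups and 259, 242 and 302 CPM in the mutant pups. Sox6 took 295 and 343 CPM in the WT pups and 343, 303 and 351 CPM in the mutant pups in the same cells. On this scale the pups of the labels overlapped for both genes, and after TMM scaling those of Sox6 did not. Prehypertrophic cells had 0.678 times the resting level of Sox5 and 0.611 times that of Sox6 by the means, and were lower than resting cells in 5 of 5 pups for each gene, whereas Sox9 was higher there in 5 of 5. Sox6 varied little across pups there, with levels of 156 and 169 CPM in the WT pups and 155, 157 and 165 CPM in the mutant pups. In the Col10a1-led cluster Sox5 was at 64.8 CPM and Sox6 at 117 CPM, against 159 and 169 CPM in the Smpd3-led cluster.

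Sox5 and Sox6 had further high points outside the growth plate. Of 50 clusters, Sox5 was highest in a fibroblast cluster led by Htra4, at 602 CPM in 1019 cells that made up between 18.2% and 25.4% of the fibroblasts of each pup. Fibroblast Sox5 UMIs were 14.4 times what the Col2a1 of these cells would bring from the pool. The ratio by Col1a1 was 1.17, but it is no gauge of stray RNA in cells that make Col1a1. An articular cluster led by Msmp and Cilp had the next highest Sox5, at 413 CPM, with 461 CPM of Sox6. Sox6 was highest, at 507 CPM, in an erythroid cluster led by Car2, and SOX6 is also known for its work in red cell precursors. The erythroid levels of Sox6 were 512, 174, 262, 142 and 335 CPM in pups 1 to 5, and 216 of the 268 cells of the Car2-led cluster came from WT pup 1. Over the 3 Sox genes together, Sox9 supplied 76.4 ± 2.16% of the UMIs in resting cells, 89.0 ± 1.27% in prehypertrophic cells and 46.9 ± 6.70% in fibroblasts. How well each gene is captured is not known, so such shares are read across classes and not between genes.

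**Figure D2:**
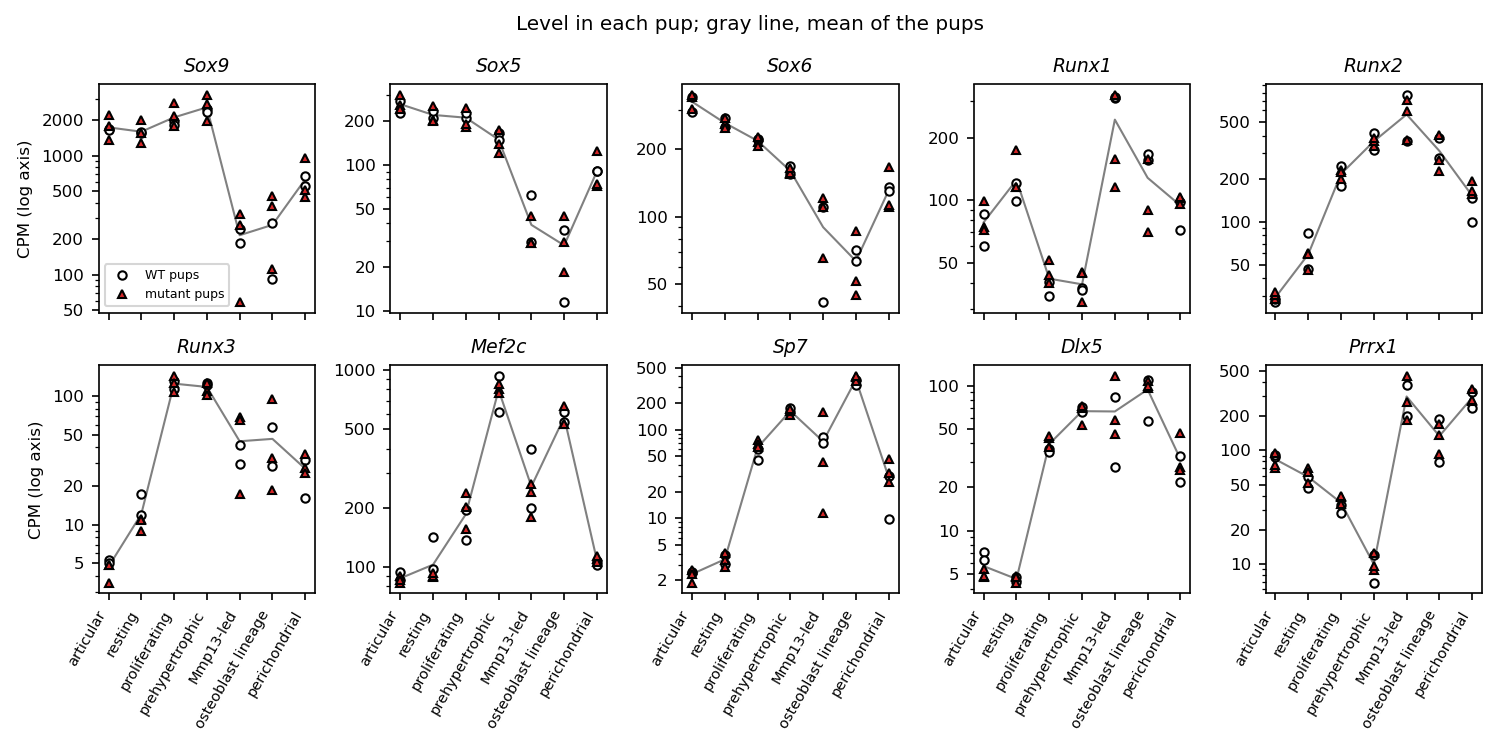
Level of each factor in each pup (CPM, log axis) in 7 classes ordered from articular cartilage to bone and perichondrium, with circles for WT pups, triangles for mutant pups and a line through the mean. Sox5 and Sox6 go down from articular to prehypertrophic cells while Runx2, Mef2c, Sp7 and Dlx5 go up, and in Mmp13-led cells, 10 to 24 cells a pup, the points are widely spread. The place of Mmp13-led cells in this order follows their marker list and was not tested.

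Runx1 (chr16:92601466-92826149, minus strand), Runx2 (chr17:44495987-44814797, minus strand) and Runx3 (chr4:135120652-135177990, plus strand) had different but overlapping patterns over the classes. Each of the 3 genes carries, in 1 of its RefSeq start-site windows, a pair of RUNX motifs a single base apart. The stretches below are shown because this pair is rare among promoters and lies at all 3 family members. They are from RefSeq on GRCm38.p6, 5′ to 3′ on the strand of the gene, with the motif AACCACA in capitals.
Runx1, chr16:92826025-92826054, minus strand: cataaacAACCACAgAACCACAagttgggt
Runx2, chr17:44814583-44814612, minus strand: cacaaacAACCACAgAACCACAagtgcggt
Runx3, chr4:135120503-135120532, plus strand: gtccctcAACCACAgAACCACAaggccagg
The first motif began 28 bases after the annotated start for Runx1, 23 bases after it for Runx2 and 135 bases before it for Runx3. Windows ran from 250 bases before to 50 bases after the start. AACCACA, searched on both strands, was present in 5.27% of 32851 windows of all genes, and 2 copies 1 base apart on the same strand in 5 windows, of the genes Gm16225, Olfr24, Runx1, Runx2 and Runx3. Of the 10 factors, 7 were found in the window table, and outside these 3 windows the motif was in none of their other windows. A motif match describes the letters only, and no binding was measured.

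Runx2 was higher in prehypertrophic than in resting cells, and its highest mean was in Mmp13-led cells, at 365 and 772 CPM in the WT pups and 714, 371 and 592 CPM in the mutant pups. Prehypertrophic cells had 315 and 420 CPM in the WT pups and 337, 368 and 383 CPM in the mutant pups, and resting cells 46.9, 82.9, 60.1, 45.5 and 59.5 CPM in pups 1 to 5. The Mmp13-led level was above the prehypertrophic level in 5 of 5 pups, by a margin near nil in pup 4, and the prehypertrophic level was 6.18 times the resting level by the means. The order of the means went on through osteoblast lineage (313 CPM), Tgfbi (264 CPM), proliferating (216 CPM) and perichondrial cells (152 CPM), and prehypertrophic and osteoblast lineage cells did not differ beyond their spread, with the former higher in 3 of 5 pups. Resting cells had a mean of 59.0 CPM. Macrophages had 66.5 CPM, which was 3.10 times what the pool would bring by their Col2a1, so they are no gauge of stray Runx2. Over the 7 resting clusters Runx2 ran from 23.7 CPM in the cluster led by Ucma to 179 CPM in the cluster of 961 cells led by Arc, 1 of those that scored higher as proliferating. Of those 961 cells, 247 and 493 came from WT pups 1 and 2, and 137, 18 and 66 from mutant pups 3, 4 and 5. In articular cells Runx2 had a mean of 29.5 CPM, below resting cells in 5 of 5 pups. An antisense gene, Runx2os1, lies inside Runx2 and had 2979 UMIs of its own against 98332 for Runx2. Whether the counting used strand is not given in the sources used here.

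Runx1 was higher in resting than in proliferating or prehypertrophic cells. Its highest mean was in macrophages, blood-born cells in which RUNX1 is known to act, with 233 and 298 CPM in the WT pups and 270, 354 and 218 CPM in the mutant pups. Within cartilage, resting cells had 98.8 and 120.3 CPM in the WT pups and 116, 116 and 174 CPM in the mutant pups. Proliferating cells had a mean of 41.9 CPM and prehypertrophic cells 39.4 CPM, 0.335 and 0.315 times the resting mean, and both were lower than resting cells in 5 of 5 pups. The resting clusters ran from 55.5 to 222 CPM of Runx1. Mmp13-led cells had 244 ± 98.9 CPM of it, above prehypertrophic cells in 5 of 5 pups, though with 310, 315 and 321 CPM in pups 1 to 3 and only 116 and 157 CPM in pups 4 and 5. Macrophages were above Mmp13-led cells in only 2 of 5 pups, so the order of these highest means did not hold beyond their spread.

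Among the chondrocyte classes Runx3 was highest in 3, the Tgfbi, proliferating and prehypertrophic cells. Tgfbi cells had 191 and 207 CPM in the WT pups and 244, 142 and 166 CPM in the mutant pups, and proliferating cells had 114, 132, 144, 108 and 127 CPM in pups 1 to 5. The Tgfbi level was higher in 5 of 5 pups, while proliferating and prehypertrophic cells (118 CPM) did not differ beyond their spread. Articular cells had only 5.29, 5.04, 3.52, 4.84 and 4.88 CPM, and the resting mean was 12.1 CPM. Outside the skeleton Runx3 was highest in mast cells, at 360.4 and 517 CPM in the 2 pups with at least 10 of them. That was 51.8 times what the pool would bring by their Col2a1 and 37.2 times by their Col1a1. Granulocytes (107.6 CPM) and macrophages (87.4 CPM) were at 8.89 and 9.87 times the pool by their Col2a1. Prehypertrophic cells were above granulocytes in only 3 of 5 pups.

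As shares of the Runx UMIs of a class, Runx1 supplied 63.7 ± 6.39% in resting and 69.3 ± 3.25% in articular cells but 11.0 ± 1.69% in proliferating and 7.58 ± 1.15% in prehypertrophic cells (mean ± SD, n = 5 pups). Runx2 supplied 69.7 ± 3.47% in prehypertrophic cells and 30.1 ± 5.12% in resting cells. Runx3 reached 38.2 ± 4.0% in Tgfbi and 32.7 ± 1.57% in proliferating cells and was lower in Mmp13-led (5.76%), osteoblast lineage (9.88%) and perichondrial cells (9.88%). The difference in the Runx1 share between these classes was seen in each pup: in resting cells it lay between 54.5% and 71.2%, and in prehypertrophic cells between 6.34% and 8.86%. Whether cells pass from the former make-up to the latter was not tested.

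**Figure D3:**
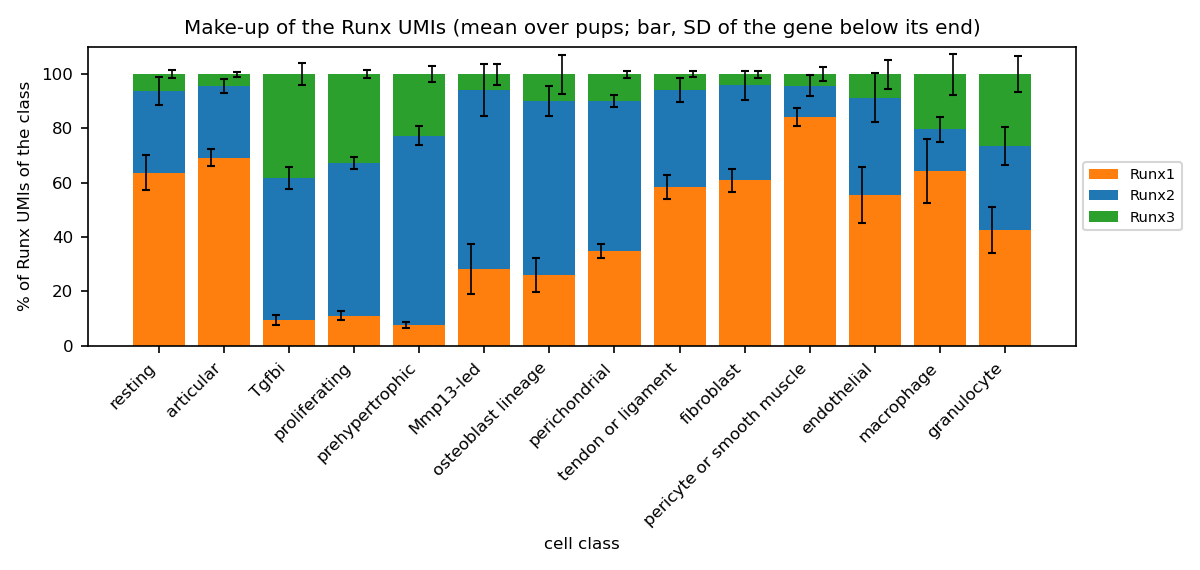
Make-up of the Runx UMIs in 14 classes, with each bar divided into Runx1, Runx2 and Runx3 as the mean percent over pups and error bars for the SD of the gene that ends there. Runx1 takes 63.7% in resting and 69.3% in articular cells, and 9.56%, 11.0% and 7.58% in Tgfbi, proliferating and prehypertrophic cells.

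Mef2c (chr13:83504034-83667080, plus strand), the MADS-box factor of hypertrophy, had its highest level in the prehypertrophic class. It took 612 and 937 CPM there in the WT pups and 806, 848 and 770 CPM in the mutant pups. WT pup 1 was the lowest and WT pup 2 the highest, so the WT pups bracketed the mutant pups. The mean of 795 CPM was 4.29 times the proliferating mean and 7.73 times the resting mean, and was higher in 5 of 5 pups in each case. With no upper limit on genes per cell and a mitochondrial limit of 20%, cells were clustered and named anew. The prehypertrophic class then held 4861 cells in place of 1694, and the proliferating class 5584 in place of 8544. The Mef2c mean of this redrawn prehypertrophic class was 511 CPM. In contrast to Sox9, Mef2c was higher in the Col10a1-led cluster (1004 CPM) than in the Smpd3-led cluster (776 CPM). Mmp13-led cells had a mean of only 257 CPM and osteoblast lineage cells 576 ± 55.9 CPM. Several vascular, nerve and blood classes had high Mef2c as well, with 513 CPM in pericytes or smooth muscle, 488 CPM in lymphoid cells, 387 CPM in Schwann cells, 360 CPM in endothelial cells and 320 CPM in macrophages. These were between 11.9 and 52.6 times the level that the pool would bring by their Col2a1, and between 5.92 and 15.7 times by their Col1a1.

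Sp7 (chr15:102356606-102367182, minus strand), the osteoblast factor osterix, was highest in osteoblast lineage cells and next in prehypertrophic cells. Osteoblast lineage cells had 362 and 322 CPM in the WT pups and 391, 350 and 405 CPM in the mutant pups. All 5 pups lay above every prehypertrophic value, which were 157, 175, 145, 163 and 172 CPM. Resting cells had 3.06, 3.89, 3.36, 4.10 and 2.85 CPM, so the prehypertrophic mean was 47.0 times the resting mean, while the resting mean of 3.45 CPM was near the 2.89 CPM of macrophages and was higher in only 3 of 5 pups. At 3000 UMIs a cell, 59.6% of osteoblast lineage cells and 38.5% of prehypertrophic cells held an Sp7 UMI, against 0.787% of macrophages. Without thinning these shares were 96.9%, 93.4% and 1.70%, with median depths of 16528, 27204.5 and 7589 UMIs. No Sp7 UMI was found in the 106 Schwann cells or the 55 mast cells, which allows shares of cells with a UMI of up to 2.83% and 5.45%.

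Dlx5 (chr6:6877805-6882085, minus strand) followed Sp7 at lower counts. It took 109 and 57.4 CPM in osteoblast lineage cells of the WT pups and 96.2, 108 and 99.9 CPM in those of the mutant pups. Prehypertrophic cells had 71.9, 65.6, 53.7, 70.8 and 72.2 CPM, lower in 4 of 5 pups, and the resting mean was 4.65 CPM. The Dlx5 maximum over the 50 clusters was a perichondrial cluster, 1415 cells led by Ostn, at 111 CPM. That cluster also had 344 CPM of Runx2, 166 CPM of Sp7, 145 CPM of Runx1 and 354 CPM of Sox9, and it was unlike the larger Col8a1-led perichondrial cluster, which had 210 CPM of Runx2, 11.2 CPM of Sp7 and 45.5 CPM of Dlx5. The Ostn-led cells made up 5.84% and 9.96% of perichondrial cells in the WT pups and 18.6%, 12.0% and 9.61% in the mutant pups, with overlap of the labels.

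Prrx1 (chr1:163245119-163313710, minus strand) was lowest in prehypertrophic cells, where Mef2c was highest. Prehypertrophic cells had 12.0 and 6.82 CPM in the WT pups and 12.6, 8.86 and 9.74 CPM in the mutant pups, the lowest mean of any class. Perichondrial cells had 234 and 324 CPM in the WT pups and 347, 271 and 279 CPM in the mutant pups, 4.97 times the resting mean and higher in 5 of 5 pups. Pericytes or smooth muscle cells (483 CPM) and fibroblasts (415 CPM) were higher again, and tendon or ligament cells (268 CPM) did not differ from perichondrial cells beyond their spread, lower in 4 of 5 pups. Among chondrocytes the Prrx1 level went down from Tgfbi (110.2 CPM) and articular cells (83.5 CPM) through resting (58.5 CPM) and proliferating cells (34.7 CPM). The prehypertrophic level was lower than the macrophage level of 29.4 CPM. No pool ratio was computed for prehypertrophic cells, so how much of their Prrx1 is stray RNA was not tested. Mmp13-led cells, at 298 ± 115 CPM, were above prehypertrophic cells in Prrx1, and above perichondrial cells in 2 of 5 pups.

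Within single cells, detection of 1 factor was compared between cells with and without a UMI of another, after thinning to 3000 UMIs, with between 0 and 515 shallower cells left out per class. In proliferating cells Sp7 was found in 18.6 ± 4.94% of cells with Runx2 and in 8.31 ± 1.60% of cells without it (mean ± SD over 5 pups), higher with Runx2 in 5 of 5 pups. The same held in perichondrial cells (8.45% against 3.10%), again in 5 of 5 pups. In prehypertrophic cells the 2 shares, 40.3% and 38.2%, differed by less than their spread. Runx3 was found with Runx2 in 33.1% of proliferating cells against 16.8% without, in 5 of 5 pups. Runx1 went the other way in these cells, with 7.29% against 14.6% and 0 of 5 pups higher. In perichondrial (25.2% against 20.4%) and tendon or ligament cells (22.3% against 17.6%) Runx1 was more frequent with Runx2, in 5 of 5 pups each. In the other classes compared its direction was not the same in all pups. Dlx5 was found in 24.5% of perichondrial cells with Sp7 and in 6.07% of those without it, in 5 of 5 pups.

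The relation of Sox9 to Runx2 turned with the class. In proliferating cells Runx2 was found in 37.1 ± 4.95% of cells with Sox9 and 17.4 ± 6.92% of cells without it, higher in 5 of 5 pups. In perichondrial cells it was found in 24.8% with and 32.8% without Sox9, and in articular cells in 5.96% with and 8.27% without, lower with Sox9 in 5 of 5 pups each time. Prrx1 was less frequent beside Sox9 in perichondrial (45.4% against 57.4%), tendon or ligament (46.2% against 51.0%) and proliferating cells (9.65% against 15.7%), in 5 of 5 pups each. Sox6 in articular cells was found in 59.6% of cells with and 52.8% of cells without Sox5. Each class holds several clusters, and the part of clusters in these shares was not tested.

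**Figure D4:**
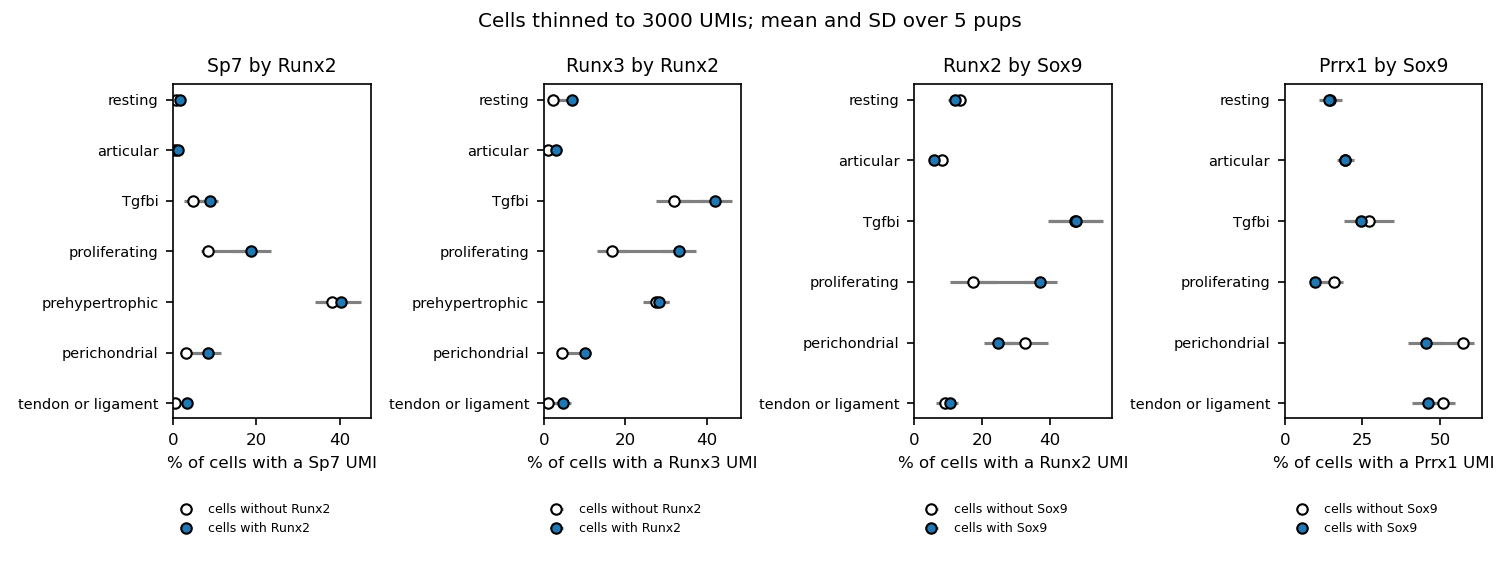
Percent of cells with a UMI of 1 factor among cells with (filled) and without (open) a UMI of another, per class, in cells thinned to 3000 UMIs, with points for the mean and bars for the SD over 5 pups. Sp7 and Runx3 lie further right with Runx2 in proliferating and perichondrial cells but not in prehypertrophic cells, and Runx2 lies right with Sox9 in proliferating cells and left in perichondrial cells.

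Across the 50 clusters the 10 factors fell into sets. On log2(CPM + 5), Pearson's r was 0.89 between Sp7 and Dlx5, 0.80 between Runx2 and Sp7, 0.77 between Runx2 and Dlx5 and 0.70 between Runx2 and Runx3. It was 0.79 between Sox5 and Sox6, 0.77 between Sox9 and Sox6 and 0.73 between Sox9 and Sox5, while Sox9 and Runx2 gave 0.22 and Runx3 and Prrx1 -0.47. Clusters share pups and were cut from the same cells, so these values describe likeness and carry no test. Of 11473 other genes, the nearest to Sox9 were Acan, the main cartilage proteoglycan (r = 0.94), Fgfrl1 (0.93) and Scrg1 (0.93). Panx3 (0.90) and Pth1r (0.88), the receptor for parathyroid hormone, were nearest to Sp7, with Rhbdl2 at 0.82. Pth1r was also the nearest to Runx2 (0.76, then Vdr at 0.74 and Gpc1 at 0.73) and second to Alpl, bone alkaline phosphatase (0.81), for Dlx5, then Dlx6 at 0.78. Prrx1 was nearest to Loxl1 (0.95), Twist1 (0.90) and Antxr1 (0.90), genes of mesenchyme and its matrix. The nearest genes were at 0.84, 0.82 and 0.81 for Sox5 (Gfpt2, Xylt1 and Cspg4) and at 0.84, 0.82 and 0.82 for Sox6 (Kif21a, Fgfrl1 and Ahi1). They were at 0.78 or lower for Runx2, given above, Runx1 (Batf 0.70, Mnt 0.67, Ifngr2 0.65), Runx3 (AI467606 0.78, Slc25a13 0.74, Fyb 0.73) and Mef2c (Lbh 0.77, Bcar3 0.72, Snf8 0.70).

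Known target genes were laid beside the factors. Of 20 cartilage genes that SOX9 is known to act on, 8 were highest in prehypertrophic cells, where Sox9 itself was highest, 7 in resting, 4 in Tgfbi and 1 in proliferating cells. Hapln1, the link protein (12941 CPM), Acan (7924 CPM) and Matn1 (5308 CPM) were among the 8, and Col2a1 was highest in resting cells at 109091 CPM. Of 20 genes tied to RUNX2 and SP7, 10 were highest in osteoblast lineage cells, 4 in prehypertrophic cells and 4 in Mmp13-led cells. They included Ibsp, a bone matrix protein, at 16655 CPM in osteoblast lineage cells, Col1a1, the main bone collagen, at 144938 CPM there, Col10a1 at 6702 CPM in prehypertrophic cells and Mmp13, a collagenase, at 25899 CPM in Mmp13-led cells. Both target lists share genes with the markers that named the classes, such as Ibsp, Col1a1, Col10a1, Mmp13, Hapln1 and Acan. Their top classes were thus partly set by the naming and are no separate support for it. Of 36 related factors, no class held the highest level of more than 5, and the 3 named next were picked after their values were seen. Cbfb, the partner of the RUNX proteins, was highest in Mmp13-led cells at 165 ± 38.9 CPM, with lymphoid cells next at 153 CPM. Sox8 was highest in proliferating cells at 79.5 ± 7.33 CPM, with prehypertrophic cells next at 72.7 CPM. For both genes the gap to the next class was smaller than the SD. Foxa2 was highest in prehypertrophic cells at 80.8 CPM, with proliferating cells next at 22.2 CPM.

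The genotype labels were compared within 7 classes with at least 30 cells in every pup, by edgeR on UMIs summed per pup, 2 WT against 3 mutant pups. None of the 10 factors passed an adjusted p (Benjamini-Hochberg over all genes of a class) of 0.05 in any class, and no gene of any kind did (0% of 11842 to 15792 genes tested per class). Unadjusted p-values under 0.05 numbered between 363 and 1454 per class, and DESeq2 called 113 genes in resting, 21 in proliferating, 16 in perichondrial, 2 in tendon or ligament and 1 in articular cells, with none of the 10 factors among them. WT and mutant pups did not overlap for 3 of 10 factors in resting cells (27.1% of all genes), 2 in articular (24.0%), 3 in Tgfbi (18.5%), 4 in proliferating (23.1%), 0 in prehypertrophic (18.9%), 3 in perichondrial (27.2%) and 2 in tendon or ligament cells (21.4%). These counts were made after TMM scaling and lay near the share over all genes. The median log2 fold change of the factors, mutant over WT, was between -0.00 and 0.15 in 5 classes, 0.22 in perichondrial cells and 0.30 in proliferating cells, with the median of all genes within 0.01 of 0.

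Where the labels did not overlap, most factors were higher and 2 were lower in mutant pups by fold change. Runx3 in resting cells was at 11.9 and 16.4 CPM in the WT pups and at 10.9, 9.52 and 11.2 CPM in the mutant pups after TMM scaling, with a log2 fold change of -0.42 ± 0.16 and an edgeR adjusted p of 0.505, the lowest adjusted p of the 10 factors in any class. The Arc-led resting cluster held 247 and 493 cells of the WT pups and 137, 18 and 66 cells of the mutant pups. Its part in this Runx3 result was not tested. Dlx5 in articular cells had a log2 fold change of -0.36 ± 0.18 with an edgeR adjusted p of 0.754. Runx2, Sp7 and Prrx1 gave the lowest unadjusted p-values. Runx2 in perichondrial cells was at 99.3 and 141 CPM in the WT pups and at 192, 163 and 165 CPM in the mutant pups after TMM scaling. In tendon or ligament cells Runx2 had a log2 fold change of 0.53 ± 0.15 and an edgeR adjusted p of 0.959. In perichondrial cells every mutant pup was higher than both WT pups, with a log2 fold change of 0.52 ± 0.16 (SE) and an adjusted p of 0.594 (edgeR), and the share of Ostn-led cells in this class, given above, was lowest in WT pup 1 as Runx2 was, whose part in the result was not tested. Sp7 in proliferating cells was at 45.7 and 56.8 CPM in the WT pups and 74.4, 72.9 and 63.9 CPM in the mutant pups after TMM scaling. The mutant pups were again all higher, with a log2 fold change of 0.46 ± 0.12 and an adjusted p of 0.806 by edgeR. A proliferating cluster led by Spink5 held 430 and 19 cells of the WT pups and 26, 339 and 203 cells of the mutant pups. Its part in the Sp7 result was not tested. In prehypertrophic cells, where Sp7 is higher, the log2 fold change was -0.03 (95% interval -0.29 to 0.22). Prrx1 in Tgfbi cells was at 76.8 and 100.7 CPM in the WT pups and 125, 125 and 123 CPM in the mutant pups after TMM scaling. Its log2 fold change there was 0.47 ± 0.15 with an adjusted p of 0.999 by edgeR. Runx1 and Sox9 were each higher in mutant pups in 7 of 7 classes by fold change, and 10 of 10 factors were in perichondrial (49.1% of all genes) and in tendon or ligament cells (49.6%), against 5 of 10 in articular (48.8%) and in prehypertrophic cells (49.2%). In the remaining classes, 9 of 10 factors were higher in proliferating (48.3% of all genes), 8 in Tgfbi (49.3%) and 7 in resting cells (49.1%). The classes share the same pups, and mutant pup 5 was the highest in 5 of 7 classes for Runx1. Without mutant pup 5 the Sox9 log2 fold change turned to -0.31 in perichondrial and -0.0269 in prehypertrophic cells. In resting cells Runx1 was at 98.4 and 113.1 CPM against 113.5, 123 and 179 CPM after TMM scaling. The lowest mutant pup was within 1 CPM of WT pup 2, and before this scaling WT pup 2 was above mutant pups 3 and 4. The log2 fold change was 0.39 ± 0.19 with an edgeR adjusted p of 0.572. Without mutant pups 3 and 4, the pups with Xist, the same comparison had a log2 fold change of 0.77 and an edgeR adjusted p of 0.0336, with 1 mutant pup left.

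Sox9 in perichondrial cells was at 671 and 536 CPM in the WT pups and at 448, 536 and 967 CPM in the mutant pups after TMM scaling. The mutant pups lay on both sides of the WT pups, with a log2 fold change of 0.10 ± 0.38, a 95% interval from -0.89 to 1.10 and an edgeR adjusted p of 0.956. The Cilp2-led cluster, the highest in Sox9 of this class, held 850 of 1901 and 766 of 2099 perichondrial cells in the WT pups. In mutant pups 3, 4 and 5 it held 802 of 3186, 660 of 2753 and 784 of 1811. The part of this cluster in the Sox9 levels was not tested. In prehypertrophic cells the Sox9 log2 fold change was 0.15 ± 0.21. The pups differed more than the labels did: mutant pup 5 was the highest of 5 in 7 of 7 classes for Sox9, Sox5 and Sox6, and mutant pup 3 was the lowest for Sox9 in 6 of 7. Sox9 in macrophages, the gauge of stray cartilage RNA, was also highest in pup 5 (294 CPM) and lowest in pup 3 (130.3 CPM), and its part in these orders was not tested. A difference of the genotype effect among classes was tested in 1 edgeR fit with the pup as a block, and it passed for 0% of 17194 genes. The lowest unadjusted p of the 10 factors was 0.0652, for Runx2, with an adjusted p of 1.00.

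**Figure D5:**
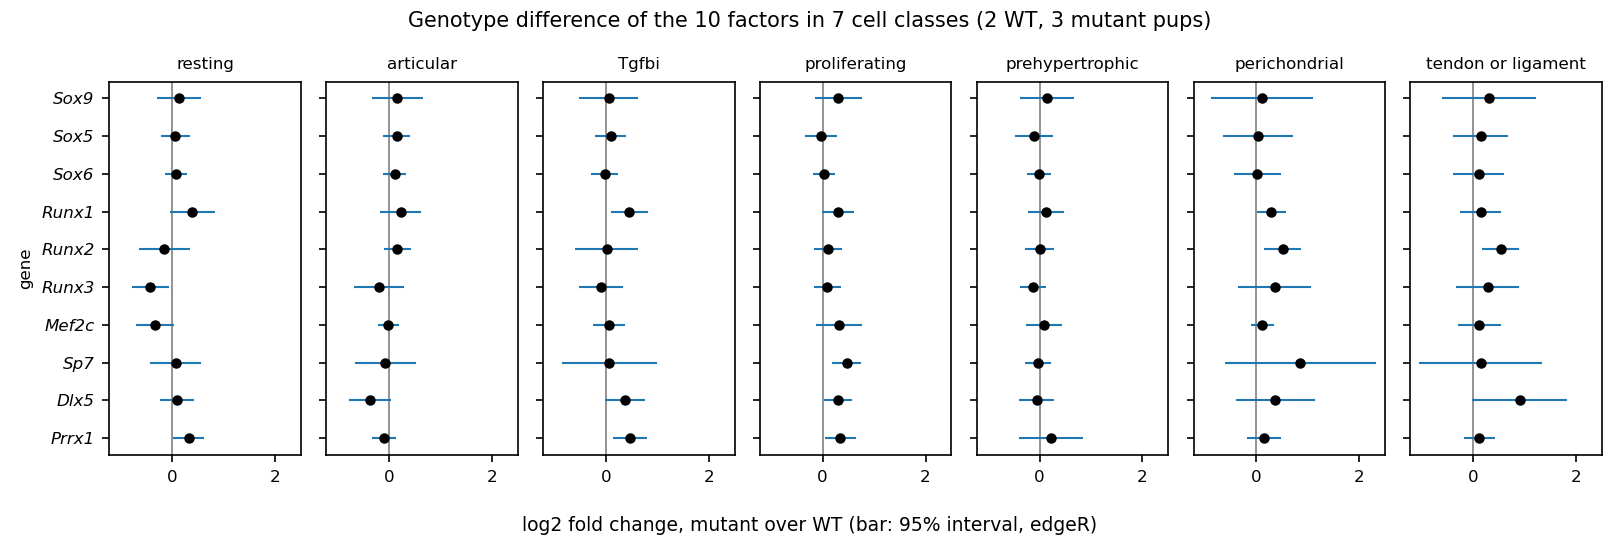
Log2 fold change of each factor, mutant over WT pups, in the 7 tested classes, with points for the edgeR estimate and bars for its 95% interval. Most intervals span 0, those of Sox9 and Sp7 in perichondrial cells are the widest of that class, and the few intervals clear of 0 belong to p-values that did not pass adjustment.

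The target lists were read the same way. No gene of the SOX9 or RUNX2 and SP7 lists passed the adjusted threshold in any class. Of 14 RUNX2 and SP7 targets tested in proliferating cells, 14 had a positive log2 fold change, with a median of 0.59 against -0.01 over all genes, and 5 had an unadjusted p under 0.05, as did 915 of the 15782 genes tested there, and 48.3% of all genes tested were positive. In perichondrial cells 15 of 16 were positive (median 0.53), in prehypertrophic cells 12 of 15 (median 0.49) and in tendon or ligament cells 7 of 14 (median 0.00). The counts were 11 of 15 in resting (median 0.26), 9 of 15 in articular (median 0.16) and 9 of 13 in Tgfbi cells (median 0.15). Osteoblast lineage cells, where 10 of the 20 targets were highest, numbered 10 and 36 in the WT pups and 112, 22 and 13 in the mutant pups, with mutant pup 3 apart from the rest, and the part of their RNA in these medians was not tested. The medians of the SOX9 targets lay between 0.01 and 0.14 over the 7 classes and those of the related factors between 0.03 and 0.10. The lists were chosen with earlier results of these data known, so these medians are descriptions.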

How the data were processed

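Per the labels and the study's methods, BD Rhapsody libraries were aligned to mm10 and the authors deposited raw UMI counts per gene and cell barcode for each pup. The version of their pipeline and its handling of strand and antisense genes are not given in the sources used here. The 10 genes and all gene lists were chosen with earlier results of these data known. Of 84382 barcodes, 82516 with 200 to 6000 genes and at most 10% mitochondrial UMIs were kept, the limits the study states. Cells were clustered with scanpy 1.11.5 and leidenalg 0.10.2 at resolution 1.5 on features that left out the 10 genes, and 48 of 50 clusters were named from marker lists into 19 classes. The other 2 clusters (3537 cells) stayed unnamed. Doublets were kept in. A scrublet score of 0.35, set after the data were seen because the automatic threshold called none in 2 pups, marked 1841 cells (2.23%), and their removal was an alternative.

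Levels are CPM of summed counts in classes with at least 10 cells in a pup. Genotype labels were compared with edgeR 4.0.16 (quasi-likelihood test, TMM, low counts filtered, Benjamini-Hochberg) on counts summed per pup in classes with at least 30 cells in every pup, which left Mmp13-led and osteoblast lineage cells untested. DESeq2 1.42.0, other filters, resolutions, features and left-out pups were alternatives. Pups, not cells, were the replicates, and the study's methods describe them as littermates. The named genes were the 10 factors, the 3 genes most like each over clusters and up to 4 examples from each list. On simulated data with 200 genes changed by 1 on the log2 scale, edgeR recovered between 168 (Tgfbi cells) and 199 (articular cells) and made between 13 (articular cells) and 29 (perichondrial cells) false calls. The changed genes were drawn only from those above a set mean CPM, and the fold changes of the 10 factors were all smaller. The recovery is thus no measure of power for these factors.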

Additional observations from a re-analysis of the deposited data

How the results depend on the processing

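The alternatives were run for 11 log2 fold changes, those of each factor in the tested class where it was highest and of Sox9 in perichondrial cells, and not for those with the lowest p-values (Runx2 in perichondrial and tendon or ligament, Sp7 in proliferating and Prrx1 in Tgfbi cells). Over 14 settings the lowest adjusted p of these 11 was 0.0336, for Runx1 in resting cells (0.77 on the log2 scale) without mutant pups 3 and 4, the pups with Xist, so that sex no longer differed between the labels, where 1 mutant pup remained and was assumed to vary like the WT pups. That setting called 70 genes in resting, 7 in articular and 3 in perichondrial cells, and in prehypertrophic cells it turned the log2 fold changes of Sp7 and Dlx5, -0.03 and -0.06 with all pups, to 0.0735 and 0.0943. With no filter on low counts edgeR called 69 genes in resting, 70 in articular, 22 in Tgfbi, 14 in proliferating, 29 in prehypertrophic and 190.0 in perichondrial cells, and 4 among classes. DESeq2 called 113 in resting, 1 in articular, 21 in proliferating, 16 in perichondrial and 2 in tendon or ligament cells. With the 10 factors among the features 7 genes were called in resting cells and the log2 fold change of Runx2 in prehypertrophic cells turned to -0.0134, and without doublets 1 gene was called in resting cells. Resolution 0.8 called 2 genes in proliferating cells and put Sox6 in articular cells at 359 CPM. Resolution 2.5 turned the log2 fold change of Sp7 in prehypertrophic cells to 0.0058 and gave 235 CPM for Runx3 in Tgfbi cells. With no upper limit on genes per cell and a mitochondrial limit of 20%, changed together, 84239 cells were kept and clustered anew. The prehypertrophic class then held 4861 cells in place of 1694, and the proliferating class 5584 in place of 8544. Here 1 gene was called in prehypertrophic cells, where the log2 fold changes turned to -0.0658 for Mef2c and 0.0237 for Sp7, and the levels were 232 CPM for Sox5 and 291 CPM for Sox6 in articular and 511 CPM for Mef2c in prehypertrophic cells. The mean of single-cell CPM was 290.0 for Sox5 and 354 for Sox6 in articular cells. The cause was not tested.

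Leaving out each pup in turn, called genes ranged from 0 to 21 in resting, 0 to 9 in articular, 0 to 5 in Tgfbi, 0 to 7 in proliferating, 0 to 7 in prehypertrophic, 0 to 8 in perichondrial (6 without WT pup 2) and 0 to 5 in tendon or ligament cells, and 0 to 4 among classes. The log2 fold changes ranged from 0.17 to 0.52 for Runx1 in resting cells, 0.05 to 0.22 for Sox5 and 0.06 to 0.15 for Sox6 in articular cells, and -0.30 to 0.0379 for Runx3 in Tgfbi cells. In prehypertrophic cells they ranged from -0.0269 to 0.33 for Sox9, -0.16 to 0.19 for Runx2 (-0.0132 without pup 4, -0.0393 without pup 5), -0.16 to 0.39 for Mef2c, -0.09 to 0.0426 for Sp7 (0.0183 without pup 2) and -0.15 to 0.0881 for Dlx5 (0.0391 without pup 1), and in perichondrial cells from -0.31 to 0.32 for Sox9 (-0.0539 without pup 2) and -0.0451 to 0.37 for Prrx1. No paired analysis was possible because each pup has a single genotype label and the labels name no pairs of pups.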
